A study of Mus musculus with 6 samples.

Results

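The heat shock proteins and chaperonins are proteins that fold new proteins and refold damaged ones. The 37 genes described here were chosen by name, and each had 1 row in the deposited table of 56748 genes. They cover 11 role classes, among them the HSP70s with their cochaperones, HSP90 with its own, the chaperones of mitochondria, the heat shock transcription factors and the cytosolic chaperonin CCT.

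The cells were mouse bone marrow with acute myeloid leukemia, and MLL-AF9, the oncogenic fusion that drives the disease, was common to both groups. Libraries numbered 31, 32 and 40 had the genotype label Rbm5 KO, and those numbered 25, 27 and 29 the label Rbm5 WT. RBM5 binds RNA and acts in splicing, and the series asks about its part in maintaining leukemia stem cells together with MYC. The labels name neither the way Rbm5 was deleted nor the age of the mice. Their protocol text speaks of whole marrow in one passage and of a culture in another.

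Rbm5 itself was at 269.0, 266.7 and 245.3 CPM (counts scaled to library size with TMM factors) in libraries labelled knockout, against 227.5, 214.1 and 173.6 CPM in those labelled wild type. Its log2 fold change was 0.34 ± 0.12 SE (edgeR quasi-likelihood test, adjusted p = 0.107), so the targeted gene was not lower where the label says it was deleted. Knockout and wild type below stand for those labels, and each direction rests on them. Totals were 26359299 to 27638075 counts in knockout libraries and 27140474 to 31807588 counts in wild-type libraries. Y-linked genes had 6899 to 7358 counts in the knockout libraries and 0 in every wild-type library, so sex and label cannot be told apart. Xist, expressed from the inactive X chromosome of females, reached 13.02, 192.2 and 32.5 CPM in knockout libraries 31, 32 and 40, against 1269 to 1625 CPM in wild-type libraries. Knockout library 32 thus had the highest Xist level of its group beside 6961 Y-linked counts. Markers of leukemic myeloid cells summed to 4673 to 5945 CPM in knockout and 3705 to 4789 CPM in wild-type libraries, but of the 12 genes 3 were higher and 2 lower by the edgeR test, with a median log2 fold change of -0.10. Erythroid markers summed to 3.64 to 5.54 CPM in knockout and 1.46 to 2.91 CPM in wild-type libraries, with 1 of 4 tested genes higher. T and NK cell markers summed to 19.3 to 58.6 CPM in knockout and 28.3 to 63.7 CPM in wild-type libraries, and 3 of 4 tested genes were higher at an unadjusted p under 0.05, with 0 past the adjusted threshold. Megakaryocyte markers summed to 12.4 to 24.96 CPM in knockout and 9.99 to 16.1 CPM in wild-type libraries, with 1 of 4 tested genes higher. B cell markers summed to 9.90 to 30.2 CPM in knockout and 10.1 to 29.6 CPM in wild-type libraries, and stromal and endothelial markers to 81.6 to 167 CPM in knockout and 99.6 to 184 CPM in wild-type libraries, with 0 genes of either past the adjusted threshold. No listed marker in the table was at 0 in all 6. A list of 16 mature neutrophil genes summed to 13274 to 30168 CPM in knockout and 1214 to 4026 CPM in wild-type libraries, with 11 of 16 higher by the edgeR test. Over all genes tested, 5.45% were higher and 3.12% lower by that test. At an unadjusted p under 0.05 by edgeR, 14.5% of all genes were higher. The part of any of these cell types in the chaperone values was not tested. In such bulk samples a change in cell numbers and a change in RNA per cell cannot be told apart.

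HSP70 proteins bind exposed hydrophobic stretches of a client in a cycle of ATP hydrolysis. J proteins start that cycle, exchange factors such as the HSP110s and BAG proteins end it, and HSP90 and CCT take over clients that need further folding. Heat or other protein damage frees the transcription factor HSF1, which binds heat shock elements, inverted repeats of the unit GAA, and raises Hspa1a, Hspa1b, Hsph1, Dnajb1, Bag3 and others within minutes. Rapidly dividing blood progenitors and leukemias also keep many of these genes at a high basal level.

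Hspa1a and Hspa1b, at the head of this response, lie side by side and are near copies. The promoters of Hspa1a and Hspa1b (RefSeq, GRCm38.p6, minus strand, chr17:34972157-34972306 and chr17:34959239-34959388) are shown because the likeness of the pair extends into them. The third sequence is the stretch before Hspe1 (plus strand, chr1:55087998-55088147), which lies head to head with Hspd1, and the fourth is that before Trap1 (minus strand, chr16:4077811-4077960), one of the genes that fell. Each line gives the 150 bases that end at the transcription start, 5′ to 3′, and capitals mark the letters GAANNTTC or TTCNNGAA.
Hspa1a: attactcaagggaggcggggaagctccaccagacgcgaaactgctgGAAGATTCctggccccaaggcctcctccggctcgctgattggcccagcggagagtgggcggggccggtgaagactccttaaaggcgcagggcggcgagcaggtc
Hspa1b: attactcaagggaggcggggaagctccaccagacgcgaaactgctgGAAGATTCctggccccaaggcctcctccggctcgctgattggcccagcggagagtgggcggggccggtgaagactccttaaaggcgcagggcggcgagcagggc
Hspe1: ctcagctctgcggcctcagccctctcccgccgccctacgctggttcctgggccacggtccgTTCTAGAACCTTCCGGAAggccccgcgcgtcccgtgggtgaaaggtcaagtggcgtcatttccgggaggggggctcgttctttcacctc
Trap1: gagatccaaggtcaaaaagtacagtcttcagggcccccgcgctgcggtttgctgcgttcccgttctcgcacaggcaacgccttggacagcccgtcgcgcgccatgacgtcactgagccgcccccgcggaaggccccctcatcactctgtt

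The Hspa1a and Hspa1b stretches differed at 1 of 150 bases. Over their open reading frames (1926 and 1929 bases), the longest found in the GENCODE M21 transcripts, they were 99.4% identical, with an uninterrupted identical run of 638 bases, so the genes are also given as a sum. The testis HSP70 gene Hspa1l, their neighbour, was 82.7% identical to Hspa1a. GAANNTTC and TTCNNGAA each read the same on either strand. At least 1 match lay in 15.1% of 32851 RefSeq windows running from 250 bases before to 50 after a start. Some genes have several windows, and 17.0% of 27025 genes had a match in at least 1 of theirs. Of 29 members that had a window, 14 had a match, including Hspa1a and Hspa1b. Fkbp4, which fell like Trap1, also had a match. So did Cct2 and Cct5, whose log2 fold changes were negative but did not pass the edgeR test. Dnajb1 and Trap1 had none, and Hspa9 had no window. Whether a match goes with the direction of change was not tested. The longer forms GAA-NN-TTC-NN-GAA and TTC-NN-GAA-NN-TTC (hyphens only part the units), each the reverse complement of the other and each holding both shorter motifs, occurred in 0.603% of windows, in those of 0.662% of genes and in those of 5 of the 29 members, Chordc1, Dnajb6, Hspd1, Hspe1 and Hsph1. A match is a run of letters, and binding was not measured.

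By the edgeR test over 15963 genes, 0 of 37 members rose and 3 fell, where 5.45% of all genes tested rose and 3.12% fell. The members that fell were Hspa9, Trap1 and Fkbp4. All 37 passed the filter on low counts. With scaling by total counts the same 3 members fell and 0 rose, while the split over all genes turned to 3.74% higher and 4.27% lower and the median of all genes to -0.13. At an unadjusted p under 0.05 the members numbered 5 higher and 6 lower, against 14.5% and 12.4% of all genes. DESeq2 called 4 members higher (Hspa1a, Hspa1b, Dnajb4 and Bag3) and 3 lower, against 9.75% and 6.58% of all genes. Limma-voom called 0 higher and 3 lower, against 5.32% and 2.92%. Without robust shrinkage edgeR called 2 higher and 2 lower, against 5.31% and 2.99%. Without knockout library 32 it called 5 higher and 2 lower, against 4.73% and 2.65%. The 37 genes held 1.36%, 0.944% and 1.23% of all counts in knockout libraries 31, 32 and 40, against 1.13%, 1.03% and 1.21% in wild-type libraries 25, 27 and 29. The sign was positive for 16 members and negative for 21, against 48.8% and 51.2% of all genes. The median log2 fold change was -0.06 over the members and -0.01 over all genes tested. Knockout values all lay above wild-type values for 2 members (Hspa1a and Dnajb4), against 17.2% of all genes, and all below for 10, against 16.5%.

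**Figure D1:**
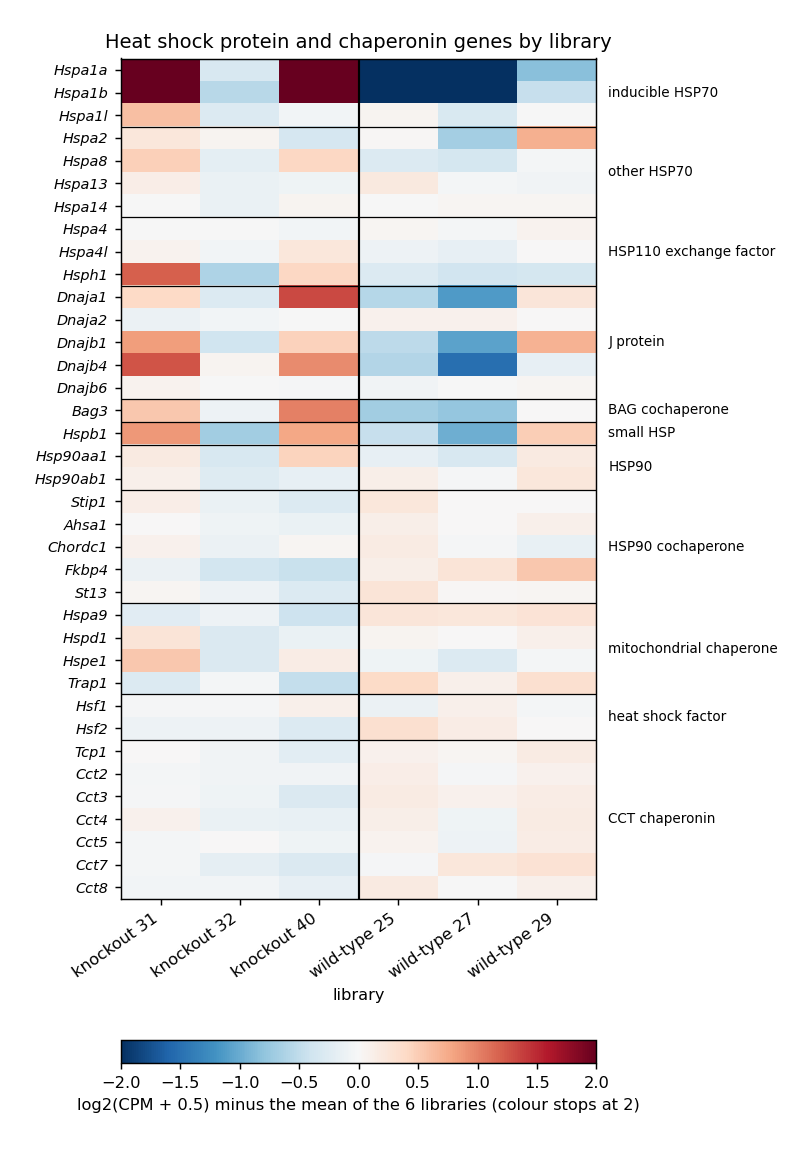
Each row is 1 gene, ordered by role, and each column 1 library, with 3 knockout libraries left of the line and 3 wild-type libraries right of it. Colour gives log2(CPM + 0.5) minus the mean of the 6 libraries. Hspa1a and Hspa1b stand out most, high in knockout libraries 31 and 40, while the CCT genes stay pale in all 6.

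The inducible HSP70s gave the widest values of the family. Hspa1a had 641.1, 68.0 and 865.8 CPM in knockout libraries 31, 32 and 40, against 19.0, 10.3 and 47.4 CPM in wild-type libraries 25, 27 and 29. Hspa1b had 1149, 113.9 and 1126 CPM in the same knockout libraries, against 38.3, 31.8 and 122.3 CPM in wild type. Knockout libraries 31 and 40 stood far above the rest, knockout library 32 was close to wild-type library 29, and for Hspa1b the groups overlapped.

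Because reads from the 2 genes can be assigned to either, their sum does not depend on that split. It was 1790, 181.9 and 1992 CPM in knockout libraries 31, 32 and 40, against 57.3, 42.1 and 169.7 CPM in wild-type libraries 25, 27 and 29. The means were 1321 ± 992 CPM in knockout and 89.7 ± 69.7 CPM in wild type (SD, n = 3 each). The fold was 14.7 (95% interval 2.45 to 88.6, log2 fold change 3.88 ± 1.05 SE), with an adjusted p of 0.0805 by edgeR's quasi-likelihood test. The difference thus missed the threshold, and its interval is wide. Without knockout library 32 the adjusted p was 0.0299, while leaving out any other single library gave 0.106 to 0.239. DESeq2 gave an adjusted p of 0.00259 with all 6 libraries.

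Hspa1a made up 35.8%, 37.4% and 43.5% of the pair's counts in knockout libraries 31, 32 and 40, against 33.2%, 24.6% and 27.9% in wild-type libraries 25, 27 and 29. The pair held 12.8%, 1.91% and 14.6% of all counts on the 37 genes in those knockout libraries, against 0.541%, 0.433% and 1.41% in wild type. Per length, Hspa1b reached 1321, 131 and 1161 TPM (counts scaled by the table's gene lengths and by library) in knockout libraries 31, 32 and 40, while the constitutive Hspa8 had 2097, 1312 and 1799 TPM there. In wild-type libraries 25, 27 and 29, Hspa1b had 49.1, 40.7 and 142.1 TPM beside 1395, 1320 and 1483 TPM of Hspa8. Hspa1l lay between 1.21 and 2.71 CPM in all 6 libraries, and an overlapping gene on the other strand, with up to 38 counts, makes its count uncertain.

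**Figure D2:**
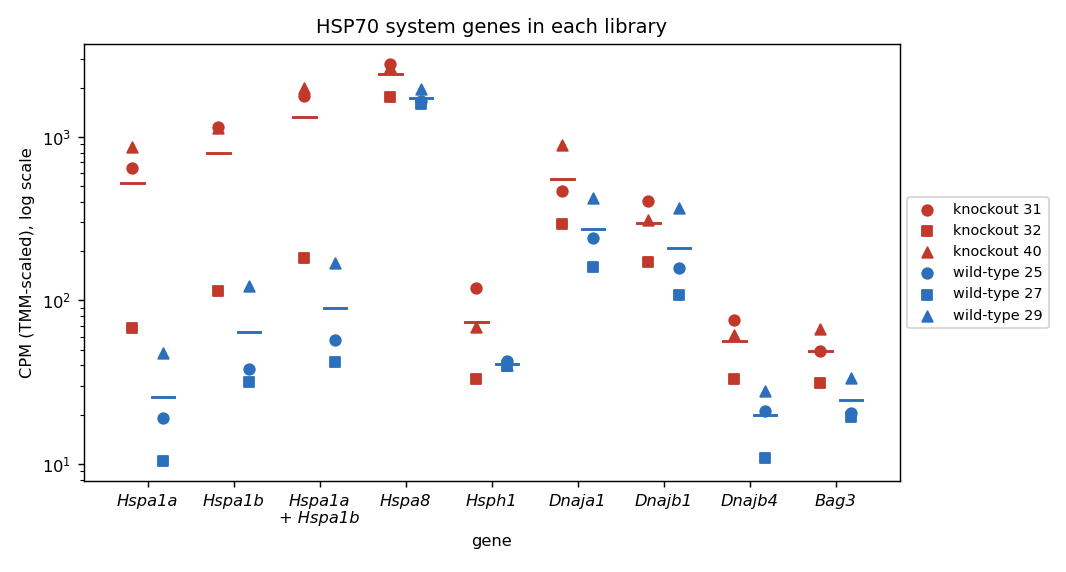
CPM on a log axis for genes of the HSP70 system, knockout (red) left of wild type (blue) for each gene, with 1 symbol per library and a bar at each group's mean of 3. Knockout library 32 (red square) is the lowest knockout library for all the genes shown, and wild-type library 29 (blue triangle) is the highest wild-type library for all but Hsph1.

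The other HSP70s were steadier. Hspa8, the constitutive cytosolic HSP70, had 2798, 1757 and 2678 CPM in knockout libraries 31, 32 and 40, against 1669, 1582 and 1958 CPM in wild-type libraries 25, 27 and 29. Its groups overlapped through knockout library 32, and the log2 fold change of 0.47 ± 0.18 SE had an edgeR adjusted p of 0.146. Leaving out 1 library gave adjusted p from 0.0334, without knockout library 32, to 0.364, without knockout library 40. Hspa2, Hspa13 and Hspa14 had log2 fold changes of -0.13, -0.06 and -0.05 with adjusted p of 0.765 to 0.850. Of these, Hspa2, best known from male germ cells, ranged from 64.6 to 169.5 CPM among wild-type libraries alone. Hspa14 shares 8264 bases on its strand with another annotated gene, Gm45902, which makes its count uncertain.

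The HSP110s act as exchange factors for HSP70, and none of their 3 genes passed the test. Hsph1, which is heat inducible, had 118.8, 33.2 and 68.7 CPM in knockout libraries 31, 32 and 40, against 42.4, 39.4 and 40.4 CPM in wild type. Knockout library 32 was the lowest of all 6, and the fold of 1.81 had an interval of 0.868 to 3.76 (edgeR adjusted p = 0.269), and without library 32 the adjusted p was 0.0277. Without knockout library 31 the log2 fold change was 0.32, against 0.85 with all 6 libraries, and the adjusted p 0.550. Hspa4, the constitutive relative, had 263.3, 263.7 and 254.0 CPM in knockout against 273.7, 258.8 and 277.4 CPM in wild type, a fold of 0.965 with an interval of 0.846 to 1.10. Hspa4l had a log2 fold change of 0.17 (adjusted p = 0.345).

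Among the J proteins, Dnajb4 had the largest difference. It gave 76.2, 32.9 and 61.4 CPM in knockout libraries 31, 32 and 40, against 20.9, 10.8 and 28.0 CPM in wild-type libraries 25, 27 and 29. The groups did not overlap, and the fold was 2.85 (95% interval 1.38 to 5.88, edgeR adjusted p = 0.0850). Dnaja1 had 468.4, 292.5 and 887.4 CPM in knockout against 239.1, 160.7 and 420.4 CPM in wild type, with overlap between knockout library 32 and wild-type library 29 (fold 2.01, interval 0.825 to 4.90, adjusted p = 0.281). Its row overlaps Smu1, on the other strand, by 608 bases. Dnajb1, a heat-inducible partner of HSP70, had 406.7, 172.3 and 311.7 CPM in knockout against 157.4, 107.5 and 366.2 CPM in wild type, where library 29 exceeded 2 of the 3 knockout libraries. Dnaja2 and Dnajb6 had folds of 0.920 (interval 0.807 to 1.05) and 1.02 (interval 0.894 to 1.17).

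Bag3, an exchange factor that links HSP70 to autophagy, had 48.8, 31.1 and 67.3 CPM in knockout libraries 31, 32 and 40, against 20.4, 19.4 and 33.6 CPM in wild-type libraries 25, 27 and 29. Its fold was 2.01 (interval 1.17 to 3.44, edgeR adjusted p = 0.109), and leaving out 1 library gave adjusted p from 0.0460, without knockout library 32, to 0.276, without knockout library 40. The small heat shock protein gene Hspb1 was almost silent, with 38, 4 and 32 counts in knockout libraries and 9, 1 and 31 counts in wild-type libraries.

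The libraries with the highest and lowest value were counted for the 17 genes in the classes from inducible HSP70 to small heat shock protein. Of the 17, 8 were highest in knockout library 31 and 5 in knockout library 40, and 11 were lowest in wild-type library 27. Hspa1l and Hspb1, which had few counts, are among them. All 37 members were more spread. Of these, 11 were highest in wild-type library 25, 10 in knockout 31, 9 in wild-type 29 and 7 in knockout 40. Knockout library 40 was also lowest for 14 of the 37, and wild-type library 27 for 13. The same shares over all genes were not computed. The SD of log2 CPM within groups was 1.61 for Hspa1a and 1.54 for Hspa1b, larger than that of 99.9% of 8270 genes with a mean log2 CPM above 4. It was 0.75 to 0.78 for Dnaja1 and Dnajb1 (98.4% and 98.6% of genes were lower) and 0.04 for Hspa4 (1.61% lower). The 16 immediate early and handling stress genes, such as Fos and Egr1, summed to 6831, 8375 and 20489 CPM in knockout libraries 31, 32 and 40, and to 4546, 3989 and 10901 CPM in wild-type libraries 25, 27 and 29. They were highest in knockout library 40 and wild-type library 29, and 0 of them passed the edgeR test, where 5.45% of all genes rose and 3.12% fell. At an unadjusted p under 0.05 by edgeR 3 were higher and 0 lower, against 14.5% and 12.4% of all genes. Of the 16, 14 had a positive sign, against 48.8% of all genes, and their median log2 fold change was 0.89. Their part in the HSP70 values was not tested.

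HSP90 is among the most abundant chaperones of the cytosol, and its genes did not pass the test. Hsp90ab1, the constitutive form, had the highest level per length of the 37 genes, with 2568 TPM in knockout and 3311 TPM in wild type on average. In scaled counts it had 2835, 2214 and 2373 CPM in knockout libraries 31, 32 and 40, against 2866, 2606 and 3108 CPM in wild-type libraries 25, 27 and 29, which overlap (fold 0.865, interval 0.708 to 1.06, edgeR adjusted p = 0.327). The stress-responsive Hsp90aa1 had 1100, 780.7 and 1321 CPM in knockout against 863.3, 772.9 and 1103 CPM in wild type (fold 1.17, interval 0.834 to 1.64).

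Fkbp4, the immunophilin that escorts steroid receptors on HSP90, fell. It had 156.8, 132.6 and 124.6 CPM in knockout libraries 31, 32 and 40, against 185.7, 204.5 and 248.6 CPM in wild-type libraries 25, 27 and 29, and every knockout value lay below every wild-type value. The fold was 0.648 (interval 0.522 to 0.805, log2 fold change -0.63 ± 0.14 SE, edgeR adjusted p = 0.0323). Fkbp4 lies on chromosome 6 (128406698 to 128415640, minus strand, in the table's coordinates). The 393 genes of that chromosome with a mean log2 CPM above 4 stood above their own mean in wild-type libraries 27 and 29 (median 0.26 and 0.23 on the log2 scale) and below it in wild-type library 25 (-0.14) and in the knockout libraries (-0.13 to -0.10). Against wild-type library 25 alone the log2 fold change of Fkbp4 was -0.44. With 1 wild-type library left, that fit cannot decide whether the gene passes. The part of chromosome 6 in the Fkbp4 values was not tested.

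The remaining HSP90 cochaperones did not pass. Stip1, the adaptor between HSP70 and HSP90, Ahsa1, the activator of the HSP90 ATPase, and St13, an HSP70-binding adaptor, had log2 fold changes of -0.17, -0.15 and -0.22 with edgeR adjusted p of 0.258 to 0.429. Chordc1 had a fold of 1.00 (interval 0.838 to 1.19).

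In mitochondria, HSPA9 drives protein import and folding, HSPD1 and HSPE1 form the folding chamber, and TRAP1 is the local HSP90. Hspa9 fell, with 210.8, 230.4 and 186.4 CPM in knockout libraries 31, 32 and 40, against 292.8, 288.5 and 298.7 CPM in wild-type libraries 25, 27 and 29. The groups were well apart and the wild-type values nearly equal (fold 0.713, interval 0.608 to 0.837, log2 fold change -0.49 ± 0.10 SE, edgeR adjusted p = 0.0281). Trap1 fell too, with 99.9, 117.7 and 86.8 CPM in knockout against 157.7, 130.4 and 150.9 CPM in wild type (fold 0.693, interval 0.563 to 0.854, log2 fold change -0.53 ± 0.13 SE, adjusted p = 0.0457).

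These calls were close to the threshold. With 1 library left out at a time the adjusted p ran from 0.0289 to 0.0883 for Hspa9 and from 0.0318 to 0.140 for Trap1, each past the threshold only without knockout library 32. That of Fkbp4 ran from 0.0405 to 0.119, past it without wild-type library 25 or knockout library 31. The sign held in each of these fits.

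**Figure D3:**
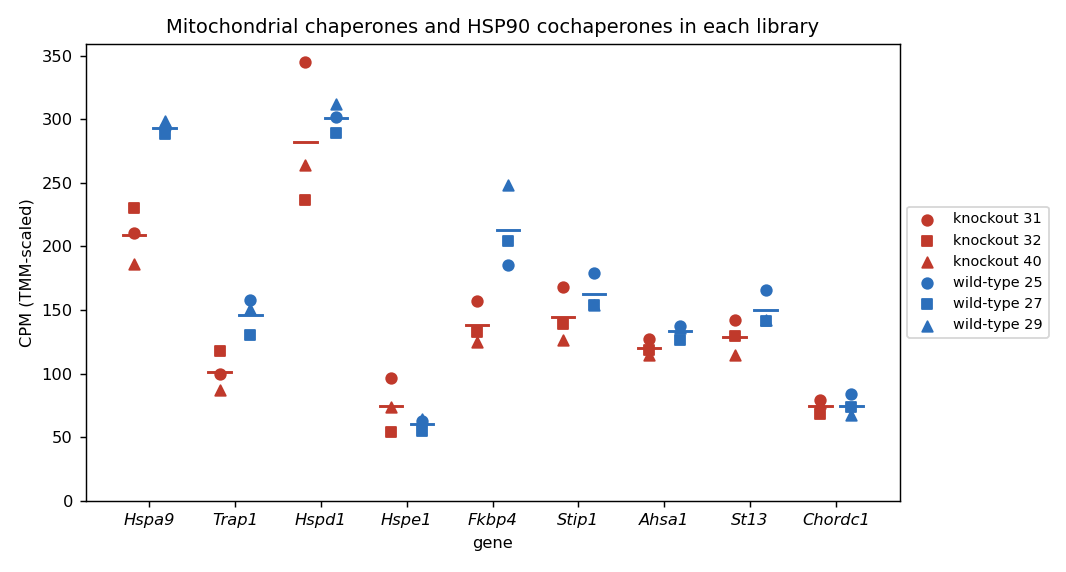
CPM on a linear axis from 0 for the mitochondrial chaperones and the HSP90 cochaperones, knockout (red) left of wild type (blue), 1 symbol per library and a bar at each group's mean of 3. Every knockout point of Hspa9, Trap1 and Fkbp4 lies below every wild-type point, whereas those of Hspd1, Hspe1 and the other cochaperones overlap.

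The chamber genes Hspd1 and Hspe1 did not pass the test. Hspd1 had 344.7, 236.9 and 263.6 CPM in knockout libraries 31, 32 and 40, against 301.8, 289.5 and 312.2 CPM in wild type (fold 0.935, interval 0.748 to 1.17, edgeR adjusted p = 0.706). Hspe1 had 96.7, 54.2 and 73.7 CPM in knockout against 62.8, 54.8 and 64.4 CPM in wild type (fold 1.23, interval 0.900 to 1.69, adjusted p = 0.362). Both were highest in knockout library 31 and lowest in knockout library 32. The genes, which lie head to head across the stretch printed above, overlap by 112 bases in the table's coordinates, and whether counting used strand is not stated. The difference between their fold changes and that of Hspa9 was not tested.

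The heat shock factors themselves were expressed at modest levels. Hsf1, the master regulator, had 52.2, 52.1 and 56.7 CPM in knockout libraries 31, 32 and 40, against 48.6, 56.4 and 51.2 CPM in wild type (fold 1.03, interval 0.880 to 1.21, edgeR adjusted p = 0.818). HSF1 is controlled mainly after translation, which counts of its mRNA do not show. Hsf2, a factor of development and proteotoxic stress, had 20.3, 20.4 and 17.9 CPM in knockout against 27.4, 24.4 and 21.9 CPM in wild type, without overlap (fold 0.795, interval 0.636 to 0.992, adjusted p = 0.173).

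CCT is the ring-shaped chaperonin that folds actin and tubulin, and its subunits are built in equal numbers. All 7 subunit genes on the list had negative log2 fold changes, from -0.33 (Cct7) to -0.08 (Cct5), with a median of -0.19, where 51.2% of all genes tested had a negative sign. By edgeR 0 of the 7 passed, and likewise 0 by DESeq2 or limma-voom. At an unadjusted p under 0.05 by edgeR 2 of the 7 were lower, against 12.4% of all genes. The 7 stayed negative under every scaling tried, with a median of -0.31 when total counts alone were used. Their summed level was 2051, 1960 and 1844 CPM in knockout libraries 31, 32 and 40, against 2229, 2107 and 2317 CPM in wild-type libraries 25, 27 and 29.

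Cct2, the subunit with the highest count, had 367.3, 360.4 and 359.1 CPM in knockout, against 412.5, 370.8 and 400.7 CPM in wild type. The groups did not overlap, but the fold of 0.918 had an interval of 0.799 to 1.05 (edgeR adjusted p = 0.403). Knockout library 40 was lowest for 6 of the 7 subunits. Knockout values lay below all wild-type values for 5 of the 7, Cct2, Cct3, Cct7, Cct8 and Tcp1, against 16.5% of all genes. Cct7, the largest of these differences (275.7 ± 24.7 CPM in knockout and 347.7 ± 38.4 CPM in wild type, SD, n = 3 each), lies on chromosome 6 like Fkbp4, and its wild-type library 25, at 304.3 CPM, was close to the 301.7 CPM of knockout library 31.

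**Figure D4:**
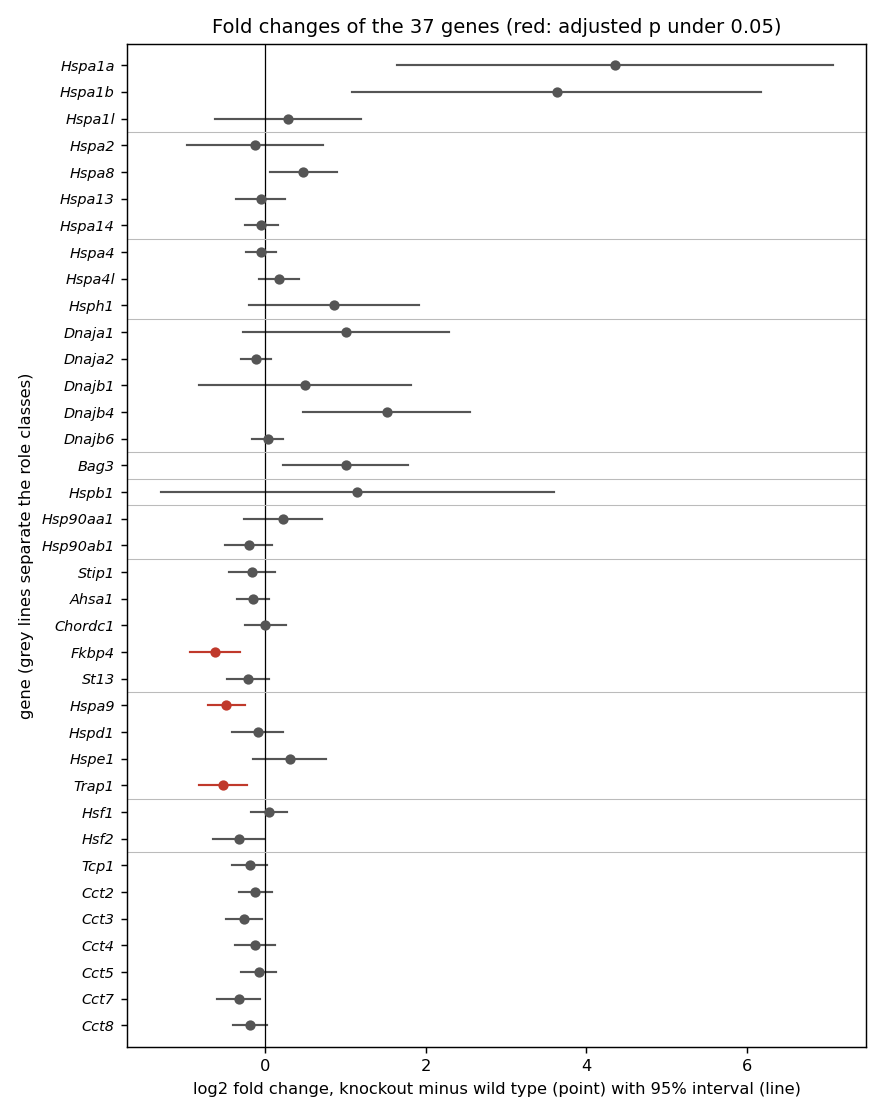
Log2 fold change of each gene, knockout minus wild type, with its 95% interval, in the order of the roles (grey lines). Intervals of Hspa9, Trap1 and Fkbp4 (red, adjusted p under 0.05) lie below 0, and those of Hspa1a and Hspa1b reach from 1.64 to 7.07 and from 1.09 to 6.18.

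A list of 76 further chaperones and cochaperones was examined beside the members, of which 70 were tested. By edgeR 1 of the 70 rose and 4 fell, where 5.45% of all genes tested rose and 3.12% fell, and their median log2 fold change was -0.12. Hspa12a, a distant HSP70 relative, rose, with 25, 52 and 38 counts in knockout libraries 31, 32 and 40 against 1, 5 and 6 counts in wild-type libraries 25, 27 and 29 (log2 fold change 3.49 ± 0.64 SE, adjusted p = 0.0206). Only its knockout counts reached the filter's minimum of 10. Hspa12a was thus tested only through the group where it was high, which limits the weight of its call. Nudcd2, an HSP90-associated NudC-domain protein, fell to 40.7 ± 4.83 CPM in knockout, against 65.0 ± 5.72 CPM in wild type (SD, n = 3 each; adjusted p = 0.0196).

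Bag2, which inhibits the chaperone-linked ubiquitin ligase CHIP, fell to 5.51 ± 1.40 CPM in knockout, against 12.1 ± 1.01 CPM in wild type (SD, n = 3 each; edgeR adjusted p = 0.0302). Tomm70a, the import receptor on which HSP70 and HSP90 dock at the mitochondrial surface, fell to 132.2 ± 13.3 CPM in knockout, against 176.6 ± 8.43 CPM in wild type (adjusted p = 0.0439). Dnajc6, the clathrin-uncoating J protein auxilin, had 10, 4 and 13 counts in knockout against 549, 100 and 69 counts in wild type (adjusted p = 0.0368), with wild-type library 25 far above both others. Dnajc6 passed the low-count filter through wild type, where it was high, so the same limit applies as for Hspa12a. None of these 5 calls held in all 6 fits that left out 1 library, and the highest adjusted p were 0.0720 (Hspa12a), 0.0625 (Nudcd2), 0.0830 (Bag2) and 0.127 (Tomm70a) without knockout library 40, and 0.116 (Dnajc6) without knockout library 31. The remaining CCT subunit gene on that list, Cct6a, had a log2 fold change of -0.24 (adjusted p = 0.124).

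**Figure D5:**
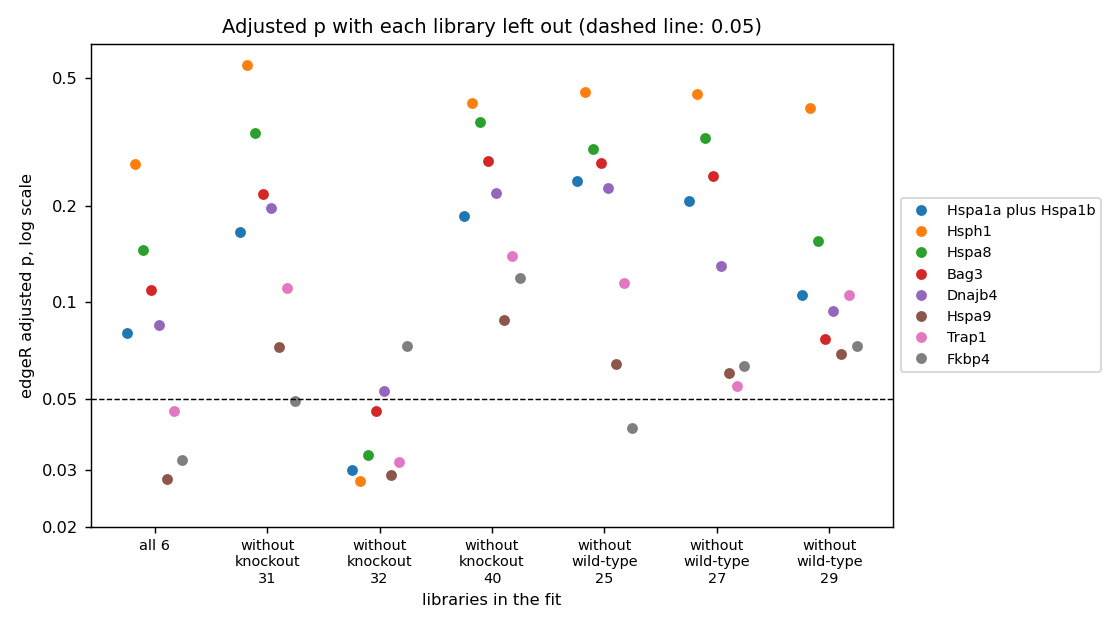
EdgeR adjusted p, drawn on a log axis, with all 6 libraries and with each library left out, for the Hspa1a and Hspa1b sum and 7 genes. The sum, Hsph1, Hspa8 and Bag3 pass 0.05 (dashed line) only without knockout library 32. No gene shown passes without knockout library 40, wild-type library 27 or wild-type library 29.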

How the data were processed

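Total RNA of 3 Rbm5 KO and 3 Rbm5 WT libraries was measured. The authors deposited whole-number counts per gene, not normalized, and the gene length in bases. Salmon and limma are named in the submitters' processing notes, with GRCm38 and mm10. How reads were counted, whether by strand, and the table's build are not stated there, and reads shared with pseudogenes or overlapping genes (17 members have one) are a limit.

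Genes were kept by filterByExpr (minimum count 10, minimum total 15), given TMM factors and compared, knockout over wild type, by the robust quasi-likelihood test of edgeR 4.0.16 (R 4.3.3), Benjamini-Hochberg over 15963 genes, threshold 0.05. The Hspa1a and Hspa1b sum came from the same fit with both rows merged. Tests took both directions, SEs were derived from the F statistic and intervals are 95%. CPM were computed from counts and TMM-scaled library sizes, and TPM from counts and gene lengths. The fit was tested on data simulated with the same dispersion for every gene. Such data do not cover genes as variable as Hspa1a and Hspa1b. Alternatives were other scalings and filters, no robust shrinkage, DESeq2 1.42.0, limma-voom (limma 3.58.1), leaving out libraries, and leaving out chromosomes X and Y. Values per library were given by rule for the HSP70 pair, called members, the 3 largest rises and falls, and the most abundant member of each class. Other members were added after their values were seen. Members and lists were chosen with earlier results of these data known. P-values of the edgeR test weigh the difference between groups against the spread between these libraries, with dispersions shrunk across genes.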

Additional observations from a re-analysis of the deposited data

How the results depend on the processing

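The 3 members that fell did so with RLE, upper-quartile and total-count scaling, with either other filter, with DESeq2 and limma-voom, and without X and Y genes. Total-count scaling moved the median of all genes to -0.13. Without robust shrinkage 2 members rose and 2 fell (Trap1 was lost). DESeq2 called 4 higher. Across fits leaving out 1 library, 0 to 5 members rose (5 without knockout library 32) and 0 to 2 fell, while 1.48% to 4.73% of all genes rose and 0.615% to 2.65% fell. Leaving out wild-type libraries 27 and 29 left 1 wild-type library, and calls from that fit are not given. The Hspa1a and Hspa1b sum passed without robust shrinkage (log2 fold change 3.88, adjusted p = 0.0420) and with DESeq2 (3.89), and leaving out 1 library gave 3.46 to 4.73. Of the further chaperones, 2 rose and 5 fell without a filter (3.79% and 2.86% of all genes). With at least 1 CPM in 3 libraries 0 rose and 4 fell (6.22% and 3.5%). DESeq2 called 3 higher and 6 lower (9.75% and 6.58%), and limma-voom 1 and 3 (5.32% and 2.92%). With 1 library left out, 0 to 2 rose and 0 to 3 fell. The filter of at least 1 CPM in 3 libraries removed Hspa12a, so its rise was not tested there.

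Members with a log2 fold change near 0 changed sign in some settings, as did Hspa1l (0.28 in the main fit) and Hspa2 (-0.13). Chordc1 turned to -0.0466 with upper-quartile factors, -0.13 with total counts, -0.018 without a filter and -0.17 without wild-type libraries 27 and 29. Dnajb6 turned to -0.0139 and -0.0914, and Hsf1 to -0.000696 and -0.0822, with upper-quartile factors and total counts. Leaving out 1 library gave -0.0706 to 0.0874 for Chordc1, -0.00209 to 0.0587 for Dnajb6, -0.00489 to 0.089 for Hsf1, -0.15 to 0.0282 for Hspa13, -0.0911 to 0.00074 for Hspa14, -0.11 to 0.49 for Hspa1l, -0.43 to 0.28 for Hspa2 and -0.27 to 0.0138 for Hspd1. The cause was not tested. No paired analysis was possible because the libraries of the 2 groups share no replicate number.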
